A study of Mus musculus with 12 samples.

Results

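The genes described here are 7 receptors and peptidases of vasoactive peptide systems in mouse macrophages: the natriuretic peptide receptors Npr1 and Npr2, the endothelin receptor Ednrb, the calcitonin-type receptor Calcrl with its partner Ramp1, and the angiotensin peptidases Enpep and Ace. They are 7 of the 46517 genes in the deposited count table. They are a named list, chosen by the levels of LYVE1+ against LYVE1- cells in these same libraries: Npr1, Ednrb and Enpep had been seen to be higher in LYVE1+ cells, and the other 4 genes belong to the same peptide systems. Their differences between LYVE1+ and LYVE1- cells are therefore given as a description with no test, while their differences between tissues were tested. The tissue tests use the same libraries, so for Npr1, Ednrb and Enpep they are not independent of the choice. Of the 7 genes, 6 passed the filter on low counts and entered the tests. Npr2 did not pass it.

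Macrophages were sorted from adult wild-type C57/BL6 mice as live cells carrying CD45, CD64, MerTK, CD11b and F4/80, and were divided by the hyaluronan receptor LYVE-1. The 4 groups were aorta LYVE1+, aorta LYVE1-, fat LYVE1+ and fat LYVE1- cells, with 3 libraries each, and no group received a treatment. The aortas came from 30 mice, and the epididymal and subcutaneous adipose tissue came from 20 mice. How the animals were divided among the 3 libraries is not given in the labels, so p-values measure only the spread between these libraries, which may be technical.

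Libraries held 5049936 to 29792301 counts. The genes of the 5 surface proteins of the gate (Ptprc, Fcgr1, Mertk, Itgam and Adgre1) were detected in every library, and Csf1r, the receptor for the main macrophage growth factor, was at 2750 to 6668 CPM (counts scaled to a common library size). Lyve1 itself was at 1497 to 2807 CPM in the 6 LYVE1+ libraries and 230 to 1323 CPM in the 6 LYVE1- libraries, so its RNA was not absent from the LYVE1- sorts. The fat libraries numbered 1 stood apart from the rest: mitochondrial genes held 8.85% of the counts of fat LYVE1+ library 1 and 12.1% of fat LYVE1- library 1, against 1.79% to 3.20% in the other 10 libraries. The sum of 5 erythroid markers was 25920 CPM for fat LYVE1+ library 1, with fat LYVE1- library 1 at 5271 CPM and the other 10 at no more than 1393 CPM. The sum of 8 B cell markers was 565 CPM in fat LYVE1+ library 1 and 213 CPM in fat LYVE1- library 1, with the other 10 at no more than 152 CPM. The 10 T and NK cell markers summed to 244 and 117 CPM there, with the other 10 at no more than 99.0 CPM. Differences between the sorts in fat are given with and without both fat libraries numbered 1.

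Vasoactive peptides set the tone of vessels and the handling of salt and water. Natriuretic peptides bind receptor guanylyl cyclases and raise cyclic GMP, endothelins bind G protein-coupled receptors that either constrict or relax the vessel, and calcitonin gene-related peptide (CGRP) and adrenomedullin share Calcrl, whose ligand preference is set by its RAMP partner. Angiotensin-converting enzyme makes angiotensin II, and glutamyl aminopeptidase, the product of Enpep, trims it to angiotensin III. Endothelial and smooth muscle cells are their best known targets in the vessel wall, and macrophages are known to respond to CGRP and to carry angiotensin-converting enzyme.

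The genes lie on separate chromosomes except for Npr1 and Enpep. On build GRCm38, Npr1 (ENSMUSG00000027931.11) spans chr3:90450591-90465866 on the minus strand and Npr2 (ENSMUSG00000028469.14) spans chr4:43631935-43651244 on the plus strand. Ednrb (ENSMUSG00000022122.13) spans chr14:103814625-103844402 on the minus strand. Calcrl (ENSMUSG00000059588.12) spans chr2:84330626-84425411 on the minus strand and Ramp1 (ENSMUSG00000034353.13) spans chr1:91179822-91225196 on the plus strand. Enpep (ENSMUSG00000028024.13) spans chr3:129269175-129332720 on the minus strand and Ace (ENSMUSG00000020681.13) spans chr11:105967945-105989964 on the plus strand. Npr1 shares 559 exon bases, or 11.7% of its exons, with the antisense gene Gm16048, which had 0 to 9 counts per library. The strand setting of the counting is not given in the sources used here, so reads from that stretch could not be assigned to a strand.

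The 250 bases before the RefSeq start site are shown for the 4 genes whose LYVE1+ and LYVE1- libraries did not overlap in either tissue, 3 of them higher and 1 lower in LYVE1+ cells. They were read from RefSeq on build GRCm38.p6, at chr3:90465867-90466116 (minus strand) for Npr1, chr14:103843702-103843951 (minus strand) for Ednrb, chr3:129332750-129332999 (minus strand) for Enpep and chr1:91179572-91179821 (plus strand) for Ramp1. No annotated exon of GENCODE M21 overlaps these windows, and the Ednrb window lies inside the longest annotated form of that gene. Capitals mark matches, on either strand, to the letters of a PU.1 core (GAGGAA), a MAF recognition motif (TGCTGA) and a GC box (GGGCGG).
Npr1: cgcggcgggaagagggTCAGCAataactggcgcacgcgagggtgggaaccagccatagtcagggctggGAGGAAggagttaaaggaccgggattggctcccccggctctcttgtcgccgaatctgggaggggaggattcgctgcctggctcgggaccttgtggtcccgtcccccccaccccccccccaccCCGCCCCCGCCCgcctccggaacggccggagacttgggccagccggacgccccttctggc
Ednrb: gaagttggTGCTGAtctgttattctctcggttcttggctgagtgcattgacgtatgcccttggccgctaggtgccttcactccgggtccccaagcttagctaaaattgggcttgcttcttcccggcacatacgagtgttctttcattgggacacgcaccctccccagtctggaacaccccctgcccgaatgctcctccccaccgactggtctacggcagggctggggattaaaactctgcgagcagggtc
Enpep: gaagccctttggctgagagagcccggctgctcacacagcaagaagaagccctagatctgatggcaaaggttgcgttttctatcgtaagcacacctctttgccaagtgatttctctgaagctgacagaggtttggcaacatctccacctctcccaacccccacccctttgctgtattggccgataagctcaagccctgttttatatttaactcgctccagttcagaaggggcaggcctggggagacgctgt
Ramp1: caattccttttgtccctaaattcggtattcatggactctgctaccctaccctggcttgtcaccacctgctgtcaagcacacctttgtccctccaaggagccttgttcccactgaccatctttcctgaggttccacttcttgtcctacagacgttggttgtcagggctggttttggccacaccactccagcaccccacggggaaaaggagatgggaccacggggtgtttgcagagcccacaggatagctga
The Npr1 window held a MAF recognition motif on the opposite strand at -234 to -229 from the start site, a PU.1 core at -182 to -177 and adjoining GC boxes on the opposite strand at -60 to -55 and -54 to -49. The Ednrb window held a MAF recognition motif at -242 to -237, and the Enpep and Ramp1 windows held none of the 3 motifs. Of the 32817 RefSeq promoters of the same length, 23.3% held a PU.1 core, 16.1% a MAF recognition motif and 32.7% a GC box, so each motif is common. No match overlapped another in these 4 windows. These are matches of letters only, and whether a factor binds there was not measured.

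Npr1, which binds atrial and brain natriuretic peptides, was the gene of the list with the widest fitted difference between the sorts in fat. In the aorta, Npr1 was at 68.7, 48.3 and 69.7 CPM in LYVE1+ libraries and at 11.8, 19.3 and 19.9 CPM in LYVE1- libraries, scaled by TMM factors as are all gene levels below. In fat, Npr1 was at 45.7, 74.9 and 52.2 CPM in LYVE1+ libraries and at 5.37, 1.57 and 2.89 CPM in LYVE1- libraries. Every LYVE1+ library was above every LYVE1- library, in both tissues. The fitted log2 fold change of LYVE1+ over LYVE1- was 1.87 (SE 0.326) in the aorta, 3.65-fold, and 4.17 (SE 0.384) in fat, 18.0-fold. The level in LYVE1+ cells was close in the tissues, at 62.2 ± 12.1 CPM in aorta and 57.6 ± 15.3 CPM in fat (SD, n = 3 each). The level in LYVE1- cells was 17.0 ± 4.53 CPM in aorta and 3.28 ± 1.93 CPM in fat (SD, n = 3 each). In bulk samples, fewer cells that carry a transcript and less of it per cell cannot be told apart.

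Npr2, the receptor for C-type natriuretic peptide, was close to the limit of detection. It had 0, 34 and 8 counts in aorta LYVE1+ libraries and 9, 11 and 1 counts in aorta LYVE1- libraries. It had 3, 1 and 0 counts in fat LYVE1+ libraries and 18, 0 and 0 counts in fat LYVE1- libraries. Its highest level was 2.56 CPM, in aorta LYVE1+ library 2, and 4 libraries had no read. A count of 0 allows a level of up to 0.150 CPM in aorta LYVE1+ library 1 and up to 0.302 CPM in fat LYVE1+ library 3, for counting error only. Since the filter removed it, no difference between groups was tested.

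Ednrb, which binds all endothelin isoforms, was the most abundant of the 7 genes per length of exon. In the aorta, Ednrb was at 1480, 1301 and 1298 CPM in LYVE1+ libraries and at 550, 680 and 645 CPM in LYVE1- libraries. In fat, Ednrb was at 1237, 2386 and 2498 CPM in LYVE1+ libraries and at 195, 668 and 632 CPM in LYVE1- libraries. The sorts did not overlap in either tissue, and the LYVE1- libraries still held 195 to 680 CPM. The fitted log2 fold change of LYVE1+ over LYVE1- was 1.12 (SE 0.373) in the aorta, 2.18-fold, and 2.03 (SE 0.383) in fat, 4.09-fold. Both fat libraries numbered 1 were the lowest of their group.

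Endothelial cells and the Schwann and melanocyte lineage also use Ednrb, so their markers were read in the same libraries, as sums over plain CPM. The 12 endothelial markers together summed to 12.3 to 61.8 CPM in aorta LYVE1+ libraries, 27.2 to 48.1 CPM in aorta LYVE1-, 11.7 to 67.3 CPM in fat LYVE1+ and 15.3 to 50.5 CPM in fat LYVE1- libraries. All 12 had a count in every group, and Ednrb alone was 3.91 to 195 times their sum in the same library. The 9 Schwann and melanocyte markers summed to 17.2 to 29.9 CPM in aorta LYVE1+, 38.4 to 58.7 CPM in aorta LYVE1-, 15.4 to 41.6 CPM in fat LYVE1+ and 37.5 to 90.1 CPM in fat LYVE1- libraries. Of these, 5 to 7 had a count in a group, and the melanocyte enzymes Dct and Tyr were at 0 in all 12 libraries. Nearly all of this sum was Mbp, at 15.1 to 84.8 CPM, while the defining Schwann factor Sox10 was at 0 to 1.12 CPM.

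Lymphatic endothelial cells carry LYVE-1 themselves, and their 6 markers were read as well. They summed to 18.1 to 59.9 CPM in aorta LYVE1+ and 9.61 to 18.9 CPM in aorta LYVE1- libraries, with 6 of 6 detected in both and the ranges overlapping. They summed to 3.10 to 16.4 CPM in fat LYVE1+ libraries, with 6 of 6 detected, and to 1.63 to 7.64 CPM in fat LYVE1- libraries, with Flt4, Mmrn1 and Reln at 0, again with overlap. Of the 5 that passed the filter, 1 was called higher in fat LYVE1+ cells by edgeR and 0 in aorta LYVE1+ cells. Their median log2 fold change of LYVE1+ over LYVE1- was 3.18 in the aorta and 5.22 in fat. In the aorta, Ccl21a was at 5.69 to 18.2 CPM in LYVE1+ and 0.334 to 1.76 CPM in LYVE1- libraries, without overlap. Mmrn1 was at 1.28 to 15.5 CPM and 0.243 to 0.339 CPM there, also without overlap, while Flt4, Pdpn, Prox1 and Reln overlapped. Prox1, the defining factor of the lineage, was at 1.42 to 6.61 CPM in aorta LYVE1+, 2.19 to 4.51 CPM in aorta LYVE1-, 1.11 to 4.03 CPM in fat LYVE1+ and 0 to 0.0981 CPM in fat LYVE1- libraries. The part of these cell types in the LYVE1+ against LYVE1- values of the 7 genes was not tested.

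Calcrl, the G protein-coupled part of the CGRP and adrenomedullin receptors, lay in a narrow band. In the aorta, Calcrl was at 12.6, 20.97 and 17.3 CPM in LYVE1+ libraries and at 22.2, 21.8 and 25.1 CPM in LYVE1- libraries. In fat, Calcrl was at 17.1, 23.8 and 31.5 CPM in LYVE1+ libraries and at 23.5, 14.9 and 28.0 CPM in LYVE1- libraries. The aortic sorts did not overlap but their nearest libraries were less than 1 CPM apart, and the fat sorts overlapped. The log2 fold change of LYVE1+ over LYVE1- was -0.44 (SE 0.272) in the aorta and 0.13 (SE 0.275) in fat.

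Ramp1, the single-pass protein that turns Calcrl into a CGRP receptor, ran the other way from Npr1, Ednrb and Enpep. In the aorta, Ramp1 was at 4.01, 4.51 and 3.13 CPM in LYVE1+ libraries and at 18.6, 11.02 and 21.7 CPM in LYVE1- libraries. In fat, Ramp1 was at 13.2, 1.04 and 1.71 CPM in LYVE1+ libraries and at 34.2, 17.1 and 14.6 CPM in LYVE1- libraries. LYVE1- libraries were all above LYVE1+ libraries of the same tissue, although fat LYVE1+ library 1 came close to the lowest LYVE1- library. The log2 fold change of LYVE1+ over LYVE1- was -2.13 (SE 0.697) in the aorta, 4.39-fold lower, and -2.14 (SE 0.719) in fat, 4.42-fold lower.

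Enpep encodes the aminopeptidase that removes the acidic first residue of angiotensin II. In the aorta, Enpep was at 134, 124 and 110.4 CPM in LYVE1+ libraries and at 30.0, 42.2 and 56.0 CPM in LYVE1- libraries. In fat, Enpep was at 136, 431 and 424 CPM in LYVE1+ libraries and at 10.6, 55.3 and 46.4 CPM in LYVE1- libraries. The sorts were apart in both tissues, and again both fat libraries numbered 1 were the lowest of their group. The fitted log2 fold change of LYVE1+ over LYVE1- was 1.52 (SE 0.500) in the aorta, 2.87-fold, and 3.137 (SE 0.532) in fat, 8.80-fold.

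Ace, the enzyme that makes angiotensin II and degrades bradykinin, was low and variable. In the aorta, Ace was at 3.36, 10.4 and 4.84 CPM in LYVE1+ libraries and at 8.16, 4.002 and 12.9 CPM in LYVE1- libraries. In fat, Ace was at 13.6, 2.86 and 2.52 CPM in LYVE1+ libraries and at 21.5, 4.22 and 2.99 CPM in LYVE1- libraries. The sorts overlapped in both tissues, and the 2 highest values were those of the fat libraries numbered 1. The log2 fold change of LYVE1+ over LYVE1- was -0.43 (SE 0.795) in the aorta and -0.63 (SE 0.819) in fat, and each changed sign when single libraries were left out, running between -1.02 and 0.04 in the aorta and between -1.81 and 0.76 in fat.

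**Figure D1:**
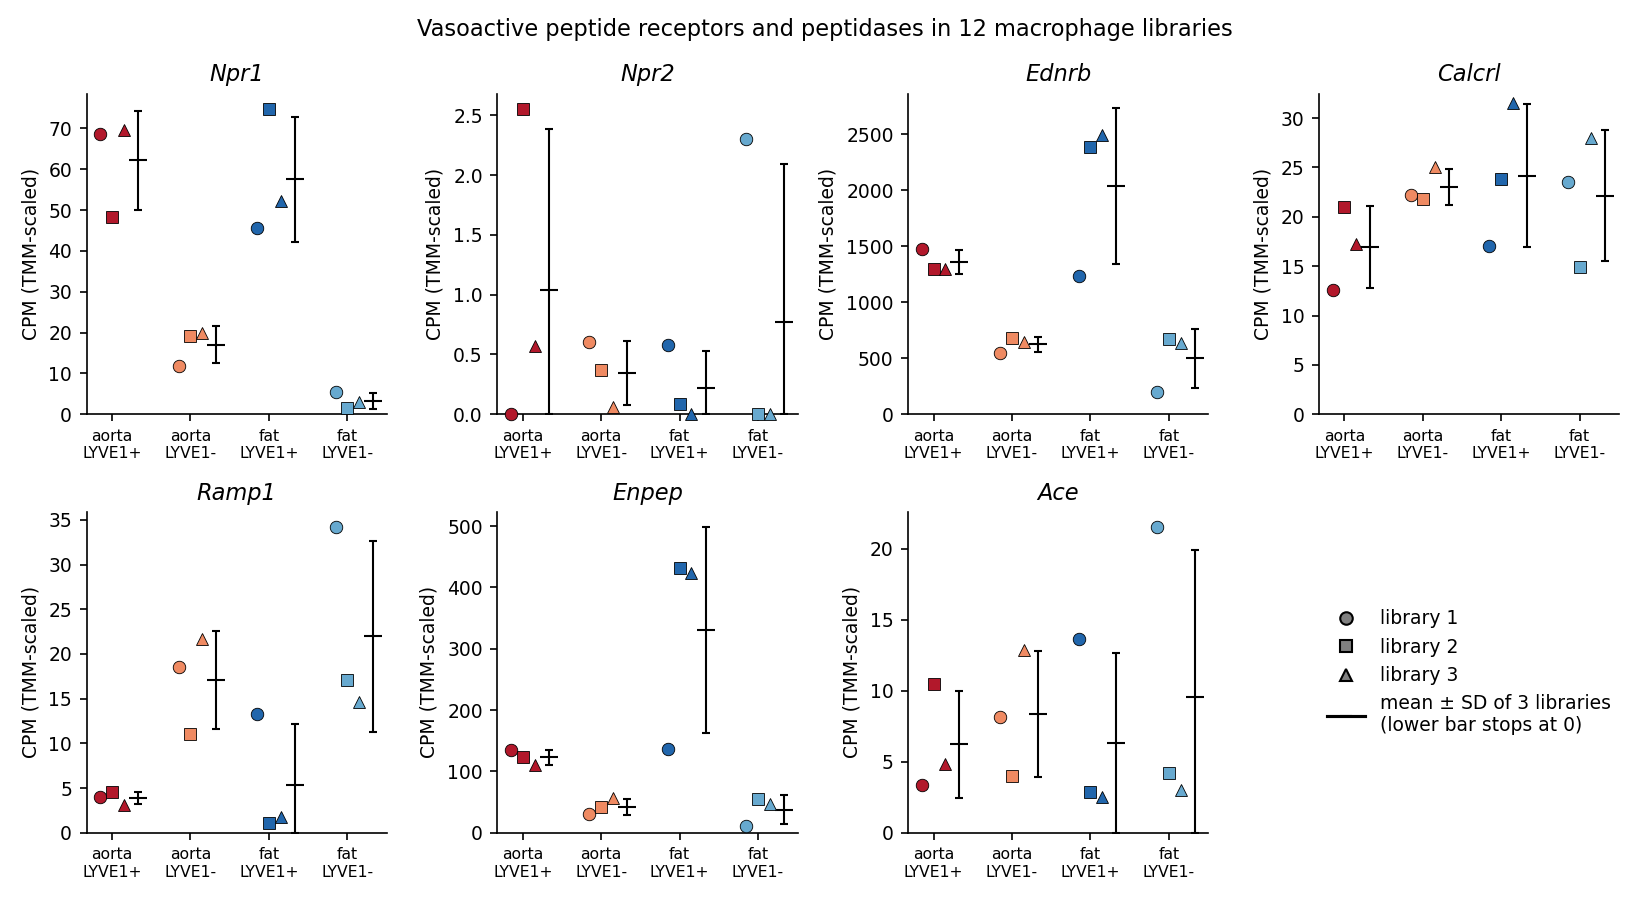
Level of each gene in CPM (TMM-scaled, vertical axis, each panel with its own scale from 0) in the 12 libraries by group; symbols mark the library number and the bar is the mean ± SD of 3 libraries. Npr1, Ednrb and Enpep are higher and Ramp1 is lower in LYVE1+ than in LYVE1- libraries of the same tissue, and the fat libraries numbered 1 (circles) hold the lowest Ednrb and Enpep and the highest Ramp1 and Ace of their groups.

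Of the 6 tested genes, 5 did not overlap between the sorts in the aorta, where 22.4% of all genes did not, and 4 did not in fat, where 18.9% did not. Npr1, Ednrb and Enpep were higher and Ramp1 was lower in LYVE1+ cells without overlap in both tissues. Of all 14216 tested genes, 2.94% were higher and 2.69% were lower in that way. Since the genes were chosen with this contrast known, nothing is read from these counts. The interaction, that is the aortic minus the fat log2 difference, was -2.30 (SE 0.485) for Npr1, -0.91 (SE 0.523, 95% interval -2.04 to 0.22) for Ednrb and -1.61 (SE 0.700) for Enpep, so the 3 fitted differences were smaller in the aorta. It was 0.21 (SE 1.139) for Ace, -0.58 (SE 0.387) for Calcrl and 0.01 (SE 1.015) for Ramp1, and the values of Ace and Ramp1 changed sign when single libraries were left out, between -1.18 and 1.39 for Ace and between -0.50 and 1.86 for Ramp1.

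Without both fat libraries numbered 1, the log2 difference of LYVE1+ over LYVE1- in fat was 4.83 (SE 0.375) for Npr1, 1.91 (SE 0.131) for Ednrb and 3.07 (SE 0.243) for Enpep, as a description. It was 0.37 (SE 0.307) for Calcrl, -3.53 (SE 0.426) for Ramp1 and -0.42 (SE 0.626) for Ace. The interaction without them was -2.96 (SE 0.437) for Npr1, -0.79 (SE 0.163) for Ednrb and -1.55 (SE 0.293) for Enpep. It was -0.81 (SE 0.395) for Calcrl, 1.40 (SE 0.511) for Ramp1 and -0.005 (SE 0.891) for Ace, so the value of Ramp1 rested on these libraries.

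The prefix of the library identifiers is not the same across the aortic libraries: aorta LYVE1+ libraries 1 and 2 carry RMM, while aorta LYVE1+ library 3 and all 3 aorta LYVE1- libraries carry RHH. Within the RHH prefix, with 1 LYVE1+ library against 3 LYVE1- libraries, the log2 ratio was 2.04 for Npr1, 1.06 for Ednrb, 1.37 for Enpep and -2.45 for Ramp1. With the RMM LYVE1+ libraries in its place, the ratio to the same LYVE1- libraries was 1.78 for Npr1, 1.15 for Ednrb, 1.59 for Enpep and -2.00 for Ramp1. Both ratios share the same LYVE1- libraries, and the RHH ratio rests on 1 LYVE1+ library, so they do not measure the part of the prefix. A fit with the prefix as a term gave 2.03 (SE 0.426) for Npr1 in the aorta, as a description. Over all genes, that fit called 2 between the aortic sorts, against 77 in the main fit. It too tells the prefix from the sort through aorta LYVE1+ library 3 alone. As a description, leaving out 1 library at a time gave log2 differences in the aorta of 1.67 to 2.02 for Npr1, 1.04 to 1.19 for Ednrb, 1.33 to 1.77 for Enpep and -2.37 to -1.92 for Ramp1. In fat it gave 3.83 to 4.69 for Npr1, 1.65 to 2.31 for Ednrb, 2.70 to 3.53 for Enpep and -3.99 to -1.63 for Ramp1. Since the sorts of these 4 genes do not overlap, their sign could not turn when a library was left out. Npr1, Ednrb and Enpep had also been chosen with their direction known.

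In fat, LYVE1+ and LYVE1- libraries of equal number deviated together from their group means, but libraries 2 and 3 did so across numbers as well. Only pair 1 is thus set apart. Libraries of equal number were read as pairs as a description. The ratio of LYVE1+ to LYVE1- for Ednrb was 6.34, 3.57 and 3.95 in pairs 1, 2 and 3, and for Enpep it was 12.8, 7.81 and 9.13. For Npr1 the ratio was 8.50, 47.7 and 18.1. For Ramp1 it was 0.388, 0.0609 and 0.117. Ednrb and Enpep were thus low on both sides of pair 1 while their ratio there was the highest of the 3 pairs. A model that takes equal numbers as a block gave a log2 difference in fat of 2.16 (SE 0.174) for Ednrb and 3.25 (SE 0.230) for Enpep. These standard errors were smaller than without the block, and they hold only if the numbers are true pairs. Ace had a ratio of 0.634, 0.678 and 0.844, below 1 in each pair, and Calcrl had 0.726, 1.60 and 1.13.

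**Figure D2:**
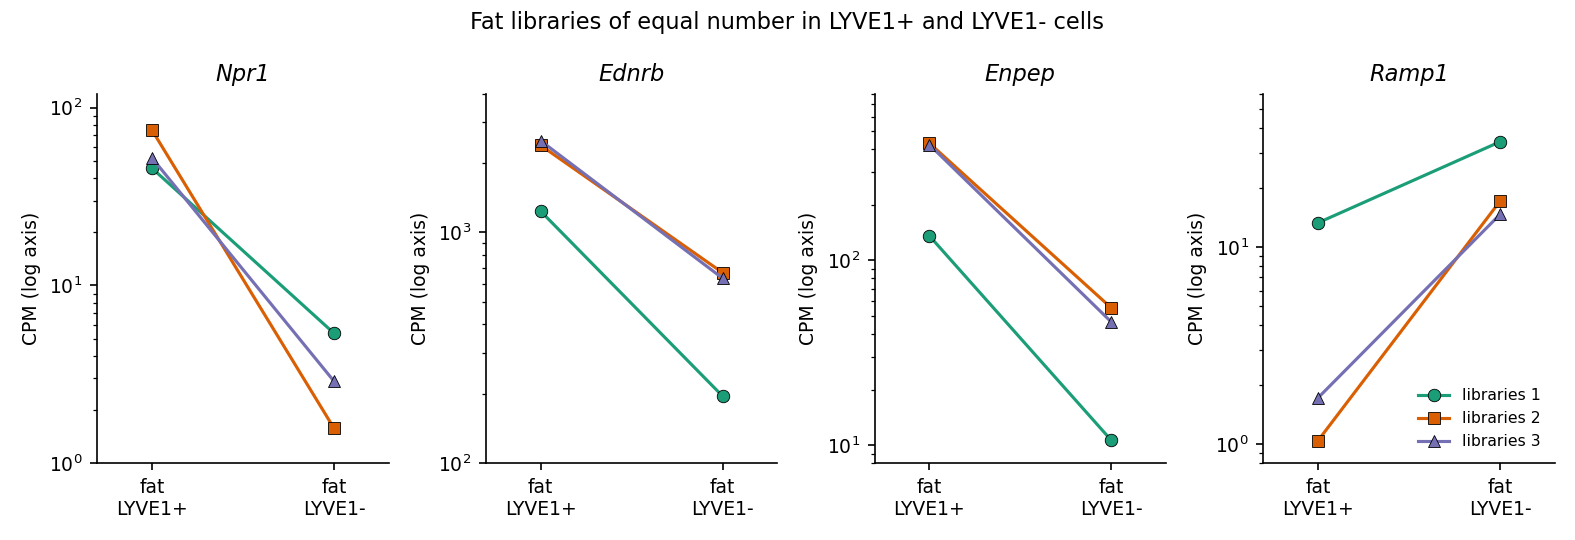
Levels of Npr1, Ednrb, Enpep and Ramp1 in fat in CPM (vertical log axes with a range of their own), LYVE1+ at left and LYVE1- at right; a line joins libraries of equal number. The lines of Ednrb and Enpep run nearly side by side, with pair 1 below the others, and Ramp1 is lower in LYVE1+ cells in all 3 pairs.

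Levels of different genes were compared per kilobase of exon (RPKM). In aorta LYVE1+ cells the order was Ednrb at 319 ± 24.4, Enpep at 26.1 ± 2.53, Npr1 at 13.0 ± 2.53, Calcrl at 3.48 ± 0.855, Ramp1 at 1.29 ± 0.231, Ace at 1.18 ± 0.707 and Npr2 at 0.223 ± 0.287 RPKM (SD, n = 3 libraries). Only the neighbours Ramp1 and Ace overlapped there. In aorta LYVE1- cells Ednrb led with 146 ± 15.7 RPKM, followed by Enpep at 9.08 ± 2.77, Ramp1 at 5.66 ± 1.81, Calcrl at 4.72 ± 0.368 and Npr1 at 3.55 ± 0.946 RPKM (SD, n = 3), with Ace at 1.58 and Npr2 at 0.0740 below them. There Enpep and Ramp1 overlapped, as did Ramp1 and Calcrl.

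In fat LYVE1+ cells the order was Ednrb at 478 ± 164, Enpep at 70.2 ± 35.8, Npr1 at 12.0 ± 3.20 and Calcrl at 4.95 ± 1.48 RPKM (SD, n = 3), and then Ramp1 at 1.76, Ace at 1.20 and Npr2 at 0.0473. Calcrl, Ramp1 and Ace overlapped with their neighbours. In fat LYVE1- cells Ednrb was at 117 ± 61.8, Enpep at 7.95 ± 5.02, Ramp1 at 7.27 ± 3.52 and Calcrl at 4.54 ± 1.36 RPKM (SD, n = 3), with Ace at 1.81, Npr1 at 0.685 and Npr2 at 0.165 below them. Only Ednrb stood apart there, and every other gene overlapped with its neighbours below Ednrb in the order. Ednrb lay above 99.0%, 98.1%, 99.3% and 97.6% of the 14168 tested genes with a length in aorta LYVE1+, aorta LYVE1-, fat LYVE1+ and fat LYVE1- cells. Npr1 lay above 78.0%, 48.8%, 76.2% and 19% of them, in the same order of groups, and Enpep above 88.3%, 71.1%, 95.7% and 67.7%. Npr1 had rank 3 of the 7 genes in both LYVE1+ groups, rank 5 in aorta LYVE1- cells and rank 6 in fat LYVE1- cells.

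**Figure D3:**
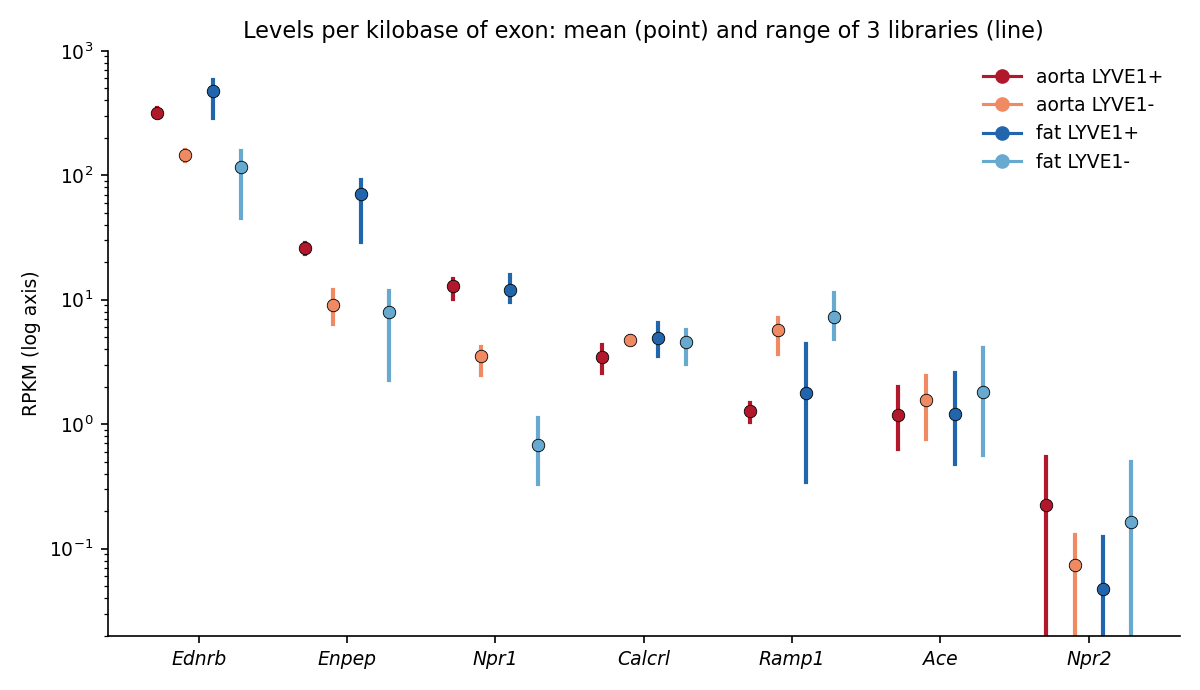
Levels in RPKM (vertical log axis) of the 7 genes in the 4 groups; points are means and lines run over the range of 3 libraries, cut at the foot of the axis where a library had no count. Ednrb is above every other gene of the list in each group, from 117 RPKM in fat LYVE1- cells to 478 RPKM in fat LYVE1+ cells.

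The question of tissue, aorta against fat, was tested within each sort with edgeR's quasi-likelihood test and Benjamini-Hochberg adjustment over all 14216 genes, with adjusted p below 0.05 as a call. In LYVE1- cells, 1 of the 6 tested genes was called, against 2.48% of all genes called and 1.66% called higher. It was also the 1 gene of 6 whose groups did not overlap, against 21.1% of all genes. That gene was Npr1, 5.31-fold higher in aorta LYVE1- cells than in fat LYVE1- cells, with the 3 aortic libraries (11.8 to 19.9 CPM) above the 3 fat libraries (1.57 to 5.37 CPM). Its log2 fold change was 2.41 (SE 0.370, 95% interval 1.61 to 3.21, edgeR adjusted p = 0.00498). Npr1 had been chosen on a difference that includes these LYVE1- libraries, so this p-value is not free of that choice. The call held in all 12 fits that left out 1 library, with values of 2.07 to 2.93. It ended with the library prefix in the model, at 2.16 (SE 0.642, edgeR adjusted p = 0.572). Over all alternatives of this result, the adjusted p of edgeR or DESeq2 ran between 1.16e-08 and 0.572. In LYVE1- cells all aortic libraries carry RHH and all fat libraries RMM, so in that model the prefix is told from the tissue through aorta LYVE1+ library 3 alone.

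Several markers moved with this difference, and some moved against it. Lyve1 RNA was at 877, 1323 and 868 CPM in aorta LYVE1- libraries and at 230, 570 and 611 CPM in fat LYVE1- libraries, without overlap. The 7 macrophage markers (the gate genes, Csf1r and Lyve1) summed to 9137 to 10122 CPM in aorta LYVE1- libraries. They summed to 5236 to 8570 CPM in fat LYVE1- libraries, also without overlap, and 0 of the 7 were called by edgeR. The 10 smooth muscle and pericyte markers, cells that use Npr1 in the vessel wall, summed to 40.6 to 97.2 CPM in aorta LYVE1- libraries, with 10 of 10 detected, and to 8.35 to 16.8 CPM in fat LYVE1- libraries, with 9 of 10 detected and Cspg4 at 0. The 6 lymphatic endothelial markers summed to 9.61 to 18.9 CPM in aorta LYVE1- libraries, with 6 of 6 detected, and to 1.63 to 7.64 CPM in fat LYVE1- libraries, with 3 of 6 detected. The 7 mast cell markers summed to 47.4 to 80.4 CPM in aorta LYVE1- libraries, with 7 of 7 detected, and to 10.3 to 17.6 CPM in fat LYVE1- libraries, with Tpsab1 and Fcer1a at 0. Of the 10 fibroblast markers, all detected, 2 were called higher in aorta LYVE1- cells, and their sums overlapped, at 1729 to 2730 CPM in aorta LYVE1- and 958 to 1886 CPM in fat LYVE1- libraries. Mitochondrial genes held 2.06% to 2.35% of the counts in aorta LYVE1- and 3.18% to 12.1% in fat LYVE1- libraries. The 8 adipocyte markers ran the other way, at 62.7 to 69.9 CPM in aorta LYVE1- and 96.9 to 210 CPM in fat LYVE1- libraries, without overlap. The 5 erythroid markers summed to 16.8 to 348 CPM in aorta LYVE1- and 228 to 5271 CPM in fat LYVE1- libraries, with overlap. The sums of the 12 endothelial markers, given above, overlapped. By edgeR, 3 smooth muscle and pericyte markers and 1 lymphatic endothelial marker were called higher in aorta LYVE1- cells. So were 1 T and NK cell marker and 1 eosinophil marker, while 3 adipocyte markers were called lower. The part of these cell types, of residual LYVE1+ cells or of RNA quality in the Npr1 difference was not tested.

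The other 5 tested genes were not called between the tissues in LYVE1- cells, and their intervals leave room for sizeable differences. The log2 fold change of aorta over fat was 0.33 for Ednrb (95% interval -0.47 to 1.12, edgeR adjusted p = 0.744) and 0.19 for Enpep (-0.89 to 1.26, edgeR adjusted p = 0.914). It was 0.06 for Calcrl (-0.53 to 0.65, edgeR adjusted p = 0.953), -0.36 for Ramp1 (-1.79 to 1.07, edgeR adjusted p = 0.863) and -0.19 for Ace (-1.91 to 1.53, edgeR adjusted p = 0.946). Calcrl had the narrowest interval.

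In LYVE1+ cells none of the 6 was called by edgeR, against 3.00% of all genes (a count of 0, with 1 gene at an unadjusted p under 0.05 and 0 called by DESeq2). The gene at the unadjusted level was Enpep, also the 1 gene of 6 without overlap (20.6% of all genes), whose 3 aortic libraries (110.4 to 134 CPM) were all below the 3 fat libraries (136 to 431 CPM). Its log2 fold change of aorta over fat was -1.43 (SE 0.496, 95% interval -2.50 to -0.36, edgeR adjusted p = 0.168). For Npr1 the value was 0.11 (95% interval -0.57 to 0.79, edgeR adjusted p = 0.917), and for Ednrb it was -0.59 (-1.39 to 0.21, edgeR adjusted p = 0.507). For Calcrl it was -0.52 (-1.11 to 0.07, edgeR adjusted p = 0.405), for Ramp1 -0.35 (-1.90 to 1.20, edgeR adjusted p = 0.881) and for Ace 0.02 (-1.74 to 1.77, edgeR adjusted p = 0.996).

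These values in LYVE1+ cells rested on the fat libraries numbered 1, the ones with high mitochondrial, erythroid, B cell and T and NK cell marker counts. Without both, 3 of the 6 genes were called by edgeR: Enpep at -1.80 (SE 0.201, adjusted p = 0.000359) and Ednrb at -0.85 (SE 0.114, adjusted p = 0.000983), both lower in aorta, and Ramp1 at 1.502 (SE 0.399, adjusted p = 0.0447), higher in aorta and of the opposite sign. Over all genes, 890 were called in that fit, against 426 in the main fit, so calls rose in general. Over all alternatives the adjusted p ran between 0.000359 and 0.374 for Enpep, between 0.000983 and 0.762 for Ednrb and between 0.0447 and 0.969 for Ramp1. Leaving out fat LYVE1+ library 1 alone gave -1.80 for Enpep with an edgeR adjusted p of 0.0431, and leaving out fat LYVE1- library 1, which is no part of this comparison but shares its estimate of spread, gave -1.43 with 0.0420. Enpep was also called by edgeR with no filter on low counts, at -1.42 with an adjusted p of 0.00429. The values of Npr1 in fat did not share this pattern: fat LYVE1+ library 1 was the lowest of its group, at 45.7 CPM, and fat LYVE1- library 1 the highest of its group, at 5.37 CPM.

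**Figure D4:**
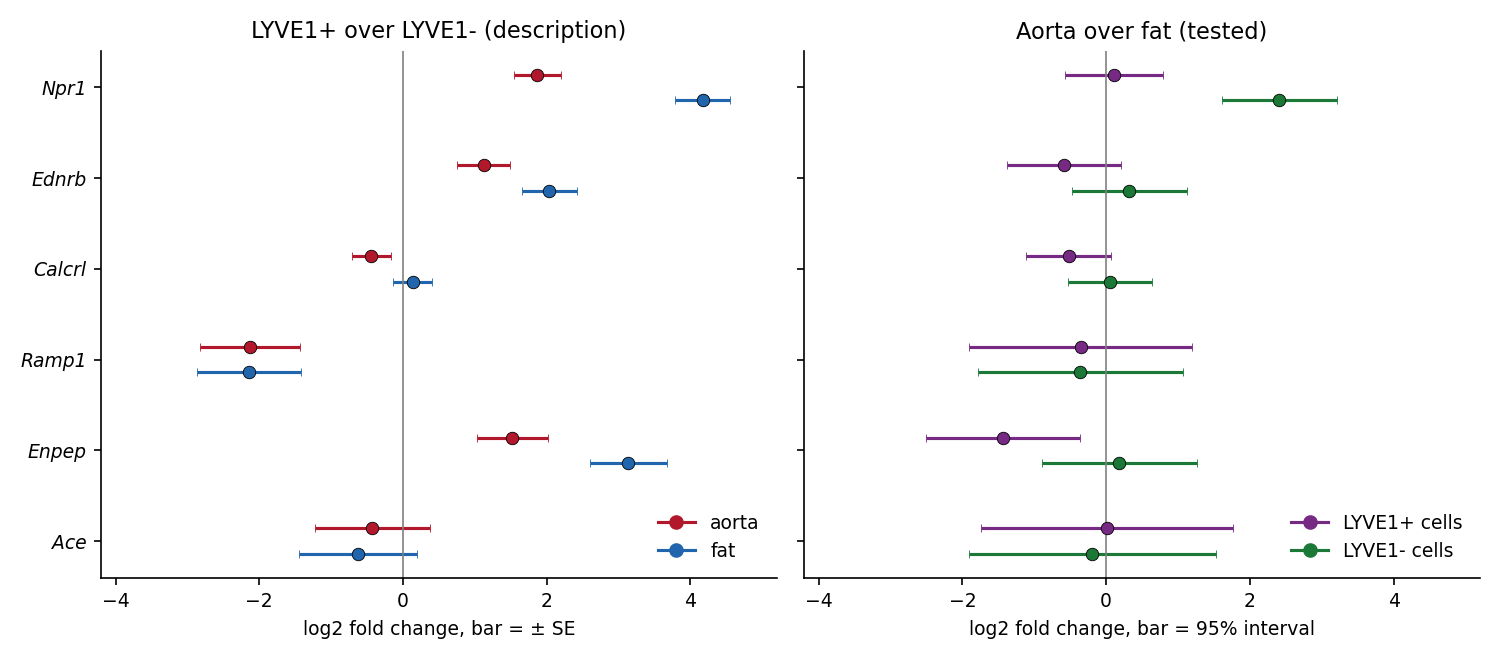
Log2 fold changes (horizontal axes) of the 6 tested genes; at left LYVE1+ over LYVE1- in aorta and fat with ± SE as a description, at right aorta over fat in LYVE1+ and LYVE1- cells with 95% intervals from the edgeR fit. At right, Npr1 in LYVE1- cells is at 2.41 with an interval above 0, and Enpep in LYVE1+ cells is at -1.43 with an interval below 0 but no call after adjustment.

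The likeness of patterns was measured as the root mean square difference of log2 CPM, each gene centred on its mean over the 12 libraries, as a description over libraries that share 4 groups. Among the 6 tested genes, Ednrb and Enpep were the nearest pair, at 0.527, and Npr1 and Ramp1 the farthest, at 3.05. Over 8694 genes with a symbol and enough reads, the 3 nearest to Ednrb were Ltc4s at 0.165, A4galt at 0.203 and Wfdc17 at 0.220, where the spread of Ednrb itself was 0.984. Ltc4s, the leukotriene C4 synthase, averaged 190 ± 3.70 CPM in aorta LYVE1+, 84.7 ± 20.8 CPM in aorta LYVE1-, 240 ± 51.2 CPM in fat LYVE1+ and 65.2 ± 33.8 CPM in fat LYVE1- libraries (SD, n = 3 each). Nearest to Enpep, with a spread of 1.47, were the ficolin gene Fcna at 0.287, Gprc5b at 0.416 and Slc9a3r2 at 0.503. Fcna averaged 1622 ± 32.5 CPM in aorta LYVE1+, 454 ± 150 CPM in aorta LYVE1-, 2987 ± 1002 CPM in fat LYVE1+ and 424 ± 223 CPM in fat LYVE1- libraries (SD, n = 3 each).

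For Npr1, with a spread of 1.80, the nearest genes were the complement receptor Vsig4 at 0.741, the adhesion receptor Adgrg1 at 0.855 and Sh3bgrl2 at 0.873. Vsig4 averaged 61.0 ± 28.8 CPM in aorta LYVE1+, 8.37 ± 2.76 CPM in aorta LYVE1-, 40.6 ± 20.7 CPM in fat LYVE1+ and 1.81 ± 0.309 CPM in fat LYVE1- libraries (SD, n = 3 each), in the same order of groups as Npr1. Nearest to Ramp1, with a spread of 1.47, were the adaptor gene Lat2 at 0.417, the lipid-sensing receptor Gpr132 at 0.420 and the adhesion molecule Alcam at 0.453. Nearest to Ace, with a spread of 0.975, were Plpp3 at 0.432, Fasn at 0.446 and Col4a2 at 0.504. Calcrl, with a spread of 0.362, had Dlg1 at 0.167, Msl1 at 0.196 and Spopl at 0.200 as its nearest genes.

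The ligands and the other receptors of these systems were mostly near or at 0. Of the 57 other genes listed for the 5 systems, 8 had no count in any library, among them the endothelin gene Edn2 and the calcitonin receptor Calcr. A further 20 had counts but did not pass the filter, and 29 were tested. The natriuretic peptide genes Nppa, Nppb and Nppc had 12, 3 and 3 counts in all 12 libraries together, and the clearance receptor Npr3 averaged at most 0.502 CPM in a group. Edn1, the main vascular endothelin, averaged 1.40 CPM in aorta LYVE1+, 2.86 CPM in aorta LYVE1-, 0.128 CPM in fat LYVE1+ and 0.634 CPM in fat LYVE1- cells. Ednra, the constrictor endothelin receptor of smooth muscle, averaged 1.55, 1.51, 0 and 0.570 CPM in the same order of groups, with no count in the fat LYVE1+ libraries.

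No other partner of Calcrl was called in any comparison by edgeR. Ramp2, which makes Calcrl an adrenomedullin receptor, averaged 2.32 CPM in aorta LYVE1+, 1.48 CPM in aorta LYVE1-, 1.68 CPM in fat LYVE1+ and 0.631 CPM in fat LYVE1- cells. Ramp3, another adrenomedullin receptor partner, was at 0.100, 0.902 and 0.213 CPM in aorta LYVE1+ libraries and at 4.21, 3.43 and 8.14 CPM in aorta LYVE1- libraries, without overlap, but was not called (log2 fold change -3.72, SE 1.586, edgeR adjusted p = 0.392). In fat, Ramp3 was at 14.2, 0.260 and 0 CPM in LYVE1+ libraries and at 13.1, 1.18 and 1.49 CPM in LYVE1- libraries, so both high values were those of the libraries numbered 1. Adm, the adrenomedullin gene, averaged 2.54 CPM in aorta LYVE1+, 4.41 CPM in aorta LYVE1-, 2.81 CPM in fat LYVE1+ and 4.01 CPM in fat LYVE1- cells. Calca, which encodes CGRP and calcitonin, was at 12.1, 0 and 0 CPM in fat LYVE1+ and at 4.73, 0 and 0.0996 CPM in fat LYVE1- libraries, again high in the libraries numbered 1.

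Among the 29 other tested genes, LYVE1+ against LYVE1- gave no call in the aorta by edgeR, against 0.542% of all genes (a count of 0, with 6 at an unadjusted p under 0.05 and 2 called by DESeq2, Furin and Dpp4). In fat 0 of 29 rose and 1 fell by edgeR, against 3.93% of all genes (558 genes, or 915 with the replicate block). DESeq2 called 4 of the 29 in fat, Furin, Ece1, Agtrap and Aplnr, 1 of them higher, beside 1022 of all genes. By edgeR, Agtrap was at a log2 fold change of 0.99 (adjusted p = 0.0733) and Aplnr at -2.81 (adjusted p = 0.0687), both without overlap. The gene that fell by edgeR was Furin, a proprotein convertase whose substrates include natriuretic peptide precursors. In fat, Furin was at 105, 60.8 and 70.3 CPM in LYVE1+ libraries and at 266, 159 and 131 CPM in LYVE1- libraries, without overlap (log2 fold change -1.24, SE 0.271, edgeR adjusted p = 0.0223). In the aorta, Furin was at 82.6, 104 and 124 CPM in LYVE1+ libraries and at 270 CPM in LYVE1- library 1, 207 CPM in library 2 and 227 CPM in library 3, with a log2 fold change of -1.18 (SE 0.268) that was not called by edgeR (adjusted p = 0.083). The fat call was lost on removal of fat LYVE1+ library 2, fat LYVE1+ library 3 or fat LYVE1- library 1 (edgeR adjusted p = 0.110, 0.103 and 0.0676), and with only the compared groups in the fit (0.107), over a range of 0.000114 to 0.110 among all alternatives. The median log2 difference of the 29 genes was -0.25 in the aorta and -0.19 in fat, beside -0.013 and 0.005 over all genes.

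Between the tissues, 0 of 29 rose and 2 fell in aorta LYVE1+ cells by edgeR, against 3.00% of all genes. DESeq2 called 4, Ednra, Anpep, Agtrap and Dpp4, 1 of them higher, beside 931 of all genes. Anpep, the alanyl aminopeptidase CD13, which trims angiotensin III further, was at 22.2, 19.2 and 15.6 CPM in aorta LYVE1+ libraries and at 36.3, 79.4 and 88.6 CPM in fat LYVE1+ libraries. The groups were apart, with a log2 fold change of -1.84 (SE 0.304, edgeR adjusted p = 0.00624), so the 2 aminopeptidases that act in turn on angiotensin II, Enpep and Anpep, both had their lower values in aorta, of which Anpep was called. Dpp4, the dipeptidyl peptidase that cleaves several vasoactive peptides, was at 0.552, 0.526 and 2.28 CPM in aorta LYVE1+ libraries and at 37.2, 9.01 and 6.55 CPM in fat LYVE1+ libraries. Its log2 fold change was -3.96 (SE 0.816, edgeR adjusted p = 0.0226), and the call ended without aorta LYVE1+ library 1 (edgeR adjusted p = 0.0945), without aorta LYVE1+ library 2 (0.0852) and with only the compared groups (0.0577), over a range of 2.34e-06 to 0.0945. Dendritic cells carry both genes, and their 8 markers summed to 181 to 200 CPM in aorta LYVE1+ libraries, with 7 of 8 detected and Clec9a at 0, and to 356 to 507 CPM in fat LYVE1+ libraries, with 8 of 8 detected. Much of that sum was Cd209a, at 119.96 to 146 CPM in aorta LYVE1+ and 216 to 319 CPM in fat LYVE1+ libraries, while the defining factor Zbtb46 overlapped, at 19.9 to 31.1 CPM in aorta LYVE1+ and 23.2 to 37.4 CPM in fat LYVE1+ libraries. The 8 adipocyte markers summed to 42.8 to 53.4 CPM in aorta LYVE1+ libraries, with Lep and Retn at 0, and to 74.2 to 192 CPM in fat LYVE1+ libraries, with 8 of 8 detected and 4 called lower in aorta LYVE1+ cells. The 10 T and NK cell markers summed to 46.4 to 85.6 CPM in aorta LYVE1+ and 23.0 to 244 CPM in fat LYVE1+ libraries. In fat LYVE1+ cells, this sum and Dpp4 were both highest in library 1. The 10 fibroblast markers leaned the other way, with 2 called higher in aorta LYVE1+ cells by edgeR. Their sums overlapped, at 1223 to 3451 CPM in aorta LYVE1+ and 729 to 1272 CPM in fat LYVE1+ libraries. The part of these cell types in the differences was not tested.

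In aorta LYVE1- against fat LYVE1- cells 0 of 29 rose and 1 fell by edgeR, against 2.48% of all genes. DESeq2 called 2, Agt and Anpep, with 0 higher, beside 850 of all genes. Agt, the gene of angiotensinogen, had no count in the 3 aorta LYVE1- libraries and was at 6.27, 4.12 and 0.796 CPM in fat LYVE1- libraries. A floor of 3 counts over the whole aortic group lay 71.7-fold below the pooled fat LYVE1- level of 3.53 CPM. This bound covers counting error only and not the spread of the fat libraries. Agt was at no more than 0.501 CPM in any aortic library, so it passed the filter on its fat libraries, where it was high. The edgeR call (adjusted p = 0.0354) belongs to the fitted difference and not to this bound. This call was lost in 8 of 12 single-library removals, with edgeR adjusted p values of 0.0503 to 0.116, and once the prefix was a term it had no usable estimate (edgeR adjusted p = 1). Adipocytes are a main source of Agt in fat, and their 8 markers summed to 62.7 to 69.9 CPM in aorta LYVE1- libraries, with 7 of 8 detected and Lep at 0, and to 96.9 to 210 CPM in fat LYVE1- libraries, with 8 of 8 detected. Most of the aortic sum was Lipe, at 49.7 to 54.5 CPM in aorta LYVE1- and 48.9 to 62.2 CPM in fat LYVE1- libraries. Fabp4 was at 5.42 to 8.55 CPM in aorta LYVE1- and 22.5 to 66.7 CPM in fat LYVE1- libraries, and 3 of the 8 markers were called lower in aorta LYVE1- cells. The part of adipocyte RNA in the Agt difference was not tested. The median of the 29 genes was 0.08 between the tissues in LYVE1+ cells and 0.11 in LYVE1- cells, beside -0.015 and -0.004 over all genes.

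The remaining enzymes and adaptors were broadly present. Atp6ap2, the prorenin receptor, was at 298 to 499 CPM over the 12 libraries, and Prcp, a carboxypeptidase that cleaves angiotensin II, was at 218 to 336 CPM. Ece1, which processes endothelin precursors, was at 26.8 to 65.6 CPM, and its relative Ece2 was at 7.37 to 14.7 CPM. Crcp, a component linked to CGRP receptor coupling, was at 20.2 to 44.0 CPM. The scavenging receptor Ackr3, which binds adrenomedullin and chemokines, was at 1.35 to 8.57 CPM, and Prkg1, the cyclic GMP-dependent kinase downstream of Npr1, was at 0 to 4.01 CPM. The interaction gave no call among the 29 genes by edgeR, against 0.155% of all genes (a count of 0, with 3 at an unadjusted p under 0.05 and 0 called by DESeq2).

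**Figure D5:**
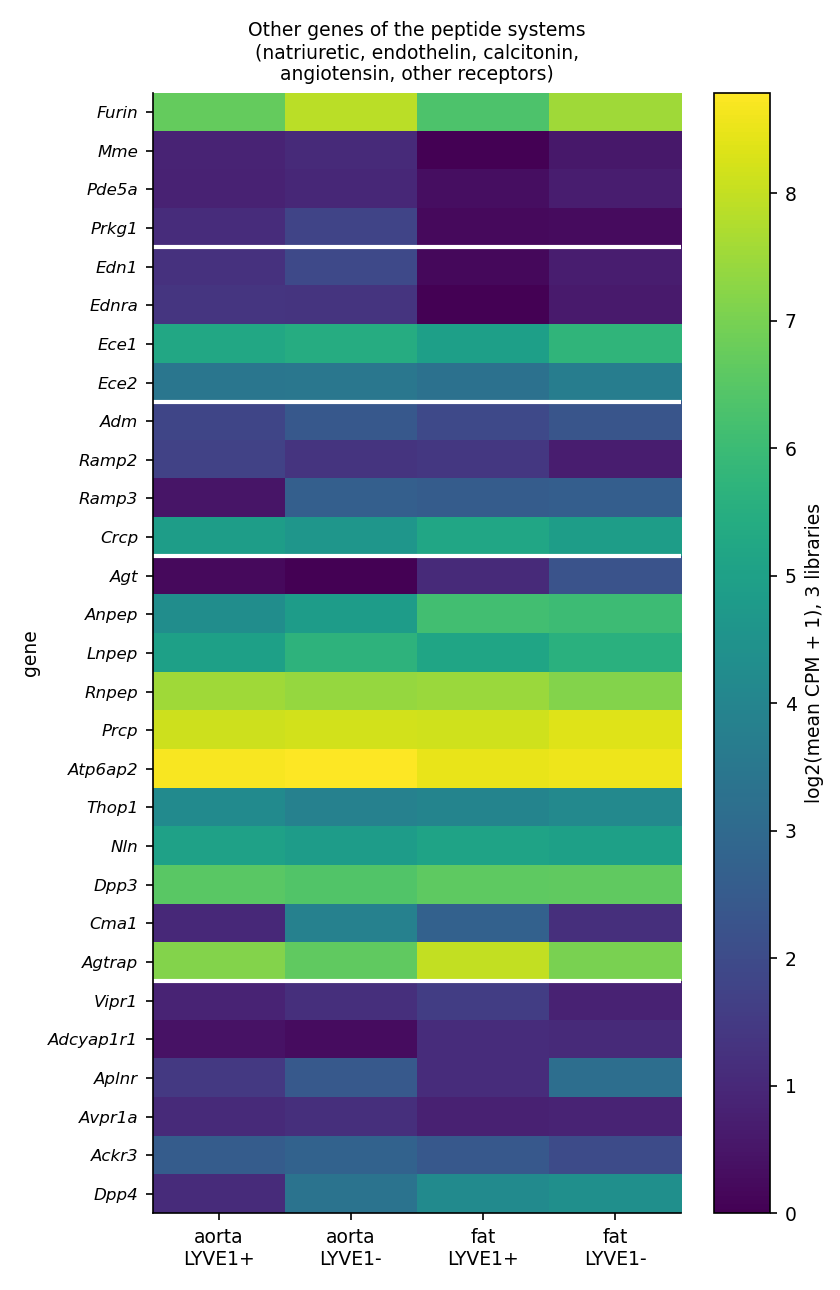
Mean level over 3 libraries, as log2(CPM + 1) in colour, of the 29 other tested genes of the peptide systems (rows, white lines between the systems) in the 4 groups (columns). Furin is lower in the LYVE1+ columns, Anpep and Dpp4 are lower in aorta LYVE1+ than in fat LYVE1+ cells, and Atp6ap2 and Prcp are high in all 4.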

How the data were processed

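Macrophage RNA was sequenced from 12 libraries in 4 groups, by Smart-seq2 with paired reads of 51 cycles, per the labels' protocols. The authors deposited raw counts per gene, and the submitters' processing notes name STAR 2.5.2b, featureCounts 1.5.0, edgeR 3.14.0 and build GRCm38. Symbols came from GENCODE M21. Strand setting, annotation release and multimapping rule are not given in the sources used here.

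The counts were tested with edgeR 4.0.16 (quasi-likelihood, R 4.3.3): 12 libraries, 1 mean per group, TMM scaling and filterByExpr. This tested 14216 genes on 8 residual degrees of freedom. SE is the log2 fold change divided by the square root of F, and intervals are 95%. Levels are CPM on TMM-scaled library sizes, RPKM uses exon length, and marker sums are plain CPM. Floors are 3 counts and cover counting error only. The fitting script was also tested on simulated data. No pair of libraries held identical values.

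The genes and lists were chosen with earlier results of these data known. Besides the 7 genes, those named are the called genes of 5 pathway lists, the 2 most abundant of each list and the 3 nearest in pattern to each tested gene (average log2 CPM of at least 3); ligands, receptor partners and genes at 0 were named for their role after their values were seen.

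Library numbers were checked for pairing by the correlation of deviations from group means. In fat, LYVE1+ and LYVE1- libraries of equal number gave 0.486, 0.279 and 0.184, each over 0.1, so they were taken as pairs and a block fit is given. Unequal numbers gave 0.192 (LYVE1+ 2 with LYVE1- 3) and 0.225 (LYVE1+ 3 with LYVE1- 2), so pairs 2 and 3 are not set apart from each other as pair 1 is. In the aorta they gave -0.044, -0.077 and -0.170. The alternatives were RLE factors, DESeq2 1.42.0, no filter, the compared groups alone, the block, the identifier prefix, removal of both fat libraries numbered 1, and removal of each library.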

Additional observations from a re-analysis of the deposited data

How the results depend on the processing

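The called aorta against fat difference of Npr1 in LYVE1- cells ended under the library prefix alone. Counts of called genes over all 14216 moved more. For LYVE1+ against LYVE1- in the aorta, 77 genes were called in the main analysis, 360 by DESeq2, 336 with no filter, 294 with only the compared groups, 243 with the replicate block, 2 with the library prefix and 566 without both fat libraries numbered 1. In fat 558 genes were called, with 1022 by DESeq2 and 206 with only the compared groups. The count was 915 with the replicate block, where equal numbers were taken as pairs, and 887 without both fat libraries numbered 1. For aorta against fat in LYVE1+ cells 426 were called, with 931 by DESeq2, 820 with no filter, 243 with only the compared groups, 181 with the prefix and 890 without both fat libraries numbered 1. In LYVE1- cells 353 were called, with 850 by DESeq2, 647 with no filter, 7 with the prefix and 1024 without both fat libraries numbered 1. For the interaction 22 were called, with 108 by DESeq2, 72 with no filter, 0 with the prefix and 84 without both fat libraries numbered 1. Of the 6 tested genes of the list, 1 was called in LYVE1+ cells with no filter and 3 without both fat libraries numbered 1, against 0 in the main analysis, and 0 in LYVE1- cells with the prefix, against 1. The cause of these shifts was not tested.

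Leaving out 1 library at a time gave 23 to 210 called genes for LYVE1+ against LYVE1- in the aorta, 219 to 1025 in fat, 172 to 538 for aorta against fat in LYVE1+ cells, 98 to 531 in LYVE1- cells and 0 to 47 for the interaction, and 0 to 1 and 1 to 1 of the list's genes in LYVE1+ and LYVE1- cells. Log2 values of aorta over fat that changed sign in these fits ran from -0.033 to 0.356 for Npr1, -0.58 to 1.20 for Ace and -0.859 to 1.501 for Ramp1 in LYVE1+ cells. In LYVE1- cells they ran from -0.059 to 0.600 for Ednrb, -0.25 to 0.58 for Enpep, -0.65 to 1.20 for Ace, -0.16 to 0.26 for Calcrl and -0.58 to 0.10 for Ramp1. For LYVE1+ against LYVE1- they were Ace (-1.02 to 0.04 in the aorta, -1.81 to 0.76 in fat) and Calcrl in fat (-0.11 to 0.34), and for the interaction Ace (-1.18 to 1.39) and Ramp1 (-0.50 to 1.86).

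Signs also turned without both fat libraries numbered 1 for Npr1 (-0.032) and Ramp1 (1.502) in LYVE1+ cells, and for Ednrb (-0.059), Enpep (-0.25), Ace (1.20) and Ramp1 (0.10) in LYVE1- cells. In LYVE1+ cells Ace turned to -0.014 by DESeq2 and -0.005 with only the compared groups, and Ramp1 to 0.10 with the replicate block. In LYVE1- cells Ace turned to 0.26 with the replicate block and 0.31 with the prefix, and Ramp1 to 0.081 with the prefix. The replicate block changed no edgeR call among the tissue values of the 6 tested genes or the 4 called pathway genes. For tissue values it joined libraries of equal number across aorta and fat. Their deviations correlated at -0.201, 0.027 and -0.168 in LYVE1+ cells and at 0.202, 0.093 and 0.032 in LYVE1- cells. Pairing across tissues was not established, so the unchanged calls are no check of it. Npr2 and the natriuretic peptide genes had too few reads to pass the filter, so their differences between groups were not tested.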
